A study of Rattus norvegicus with 12 samples.

Results

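The cardiac myosin heavy chains *Myh6* (ENSRNOG00000025757) and *Myh7* (ENSRNOG00000016983) were followed in neonatal rat ventricular myocytes (NRVM). They are 2 of the 15920 genes in the deposited expression table, were chosen by identifier as the motor genes of the heart's thick filament, and both passed the requirement of a mean normalised read count of at least 1000 over the 12 libraries. NRVM are primary heart muscle cells, here from the ventricles of Sprague Dawley pups 2 to 3 days old, depleted of nonmyocytes by preplating and BrdU and kept in serum-free medium before treatment. The 4 groups of 3 libraries each were baseline (vehicle), PE (100 µM phenylephrine, an α1-adrenergic agonist that makes cultured cardiomyocytes hypertrophy), THZ1 (10 nM of a covalent inhibitor of the transcriptional kinases CDK7, CDK12 and CDK13) and PE + THZ1 (both agents at these doses, the inhibitor given before PE). Treatment lasted 48 h by the sample labels, while the names of 6 columns of the table, those with PE, give 24 h. The labels do not say whether the libraries of a group came from separate cell preparations, so the p-values below measure the spread between libraries, which may be technical.

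Myosin heavy chain is the ATPase motor of the sarcomere. *Myh6* encodes the α chain, which hydrolyses ATP quickly and predominates in the adult rodent ventricle, and *Myh7* encodes the β chain, which is slower and predominates in the fetal ventricle. Thyroid hormone after birth raises α and lowers β, and hypertrophic stress in rodents moves the balance back towards β, which is why the pair is a long-used readout of the fetal gene programme. The genes are tandem paralogues, and they are direct neighbours among the protein-coding genes of rat chromosome 15 in RefSeq (GRCr8).

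Each of them is also the host of a microRNA, and these sequences are shown because they tie the pair together beyond the protein. The RefSeq (GRCr8) mature forms of miR-208a and miR-208b lie inside *Myh6* and *Myh7*, on the minus strand from which both genes are transcribed, and share a seed in each arm. RefSeq also places miR-3546 inside *Myh6*, on the opposite strand and with another seed. The seed, bases 2 to 8, is in capitals. The 3p forms are identical except at 3 of 18 positions, the first of them position 10, beyond the seed. The microRNAs themselves were not measured in these libraries. The positions are chr15:32395568-32395585 for miR-208a-3p and chr15:32421648-32421665 for miR-208b-3p.
rno-miR-208a-3p (in *Myh6*): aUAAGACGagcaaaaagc
rno-miR-208b-3p (in *Myh7*): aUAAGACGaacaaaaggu
The 5p arms also share their seed, at chr15:32395599-32395620 in *Myh6* and chr15:32421681-32421700 in *Myh7*.
rno-miR-208a-5p (in *Myh6*): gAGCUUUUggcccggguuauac
rno-miR-208b-5p (in *Myh7*): aAGCUUUUugcucgcguuau

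Between 30458862 and 45885754 reads per library were counted on genes (median 35381325), and the ranges of the 4 groups overlapped. Libraries of the same group differed from each other by more than counting error in every pair. The library of baseline replicate 2 stood apart, with a chi-square per gene of 54.0 and 57.4 against the other baseline libraries, where the other pairs within groups gave 2.1 to 8.9. The changes, ratios and sums set against baseline are therefore also given without it. The identifiers are not paired with symbols in the sources used here, so markers of cardiomyocytes and of other cell types could not be looked up to check the purity of the cultures. For the same reason the names *Myh6* and *Myh7* were taken as given for their identifiers and were not checked against a table, and the RefSeq positions and microRNAs above are those of the genes with these symbols. In such bulk RNA a lower level can mean fewer cells that express the gene or less of its RNA per cell, and these cannot be told apart. The levels are also relative to the other genes of a library. A change shared by most genes would be scaled away, so a rise can also be a smaller fall than that of most genes. The deposited values hold no measure of total RNA per cell.

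Both myosin genes were among the most abundant transcripts of the cultures. Over all 12 libraries *Myh7* ranked 10th and *Myh6* 45th of the 15920 genes by mean normalised read count. At baseline *Myh7* took 0.863 ± 0.0680% (SD, n = 3) of the reads counted on genes, and *Myh6* took 0.146 ± 0.00852%. A library held at least 155228 reads of *Myh7* and 25539 of *Myh6*, so counting error was small (at most 0.614% of the *Myh6* level as a group mean) beside the coefficient of variation between replicates of 1.61% to 9.76%. These values are read counts per gene and are not divided by transcript length.

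*Myh7* rose with PE and fell with THZ1, whether or not PE was present. Its normalised read count was 308863, 333863 and 337854 in the baseline libraries. PE brought it to 536800, 504697 and 492420, so every PE library lay above every baseline library. With PE + THZ1 it was 176439, 187696 and 199379, below all libraries of both of those groups. THZ1 alone gave 176901, 161163 and 178375, a range that overlapped PE + THZ1 and lay wholly under baseline. The group means were thus ordered PE (511306 ± 22916, SD, n = 3), baseline (326860 ± 15713), PE + THZ1 (187838 ± 11471) and THZ1 (172147 ± 9540), and the last pair of neighbours did not differ beyond their spread.

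*Myh6* moved the opposite way. The baseline libraries held 60158, 49871 and 55913 normalised counts, the lowest being replicate 2. In the PE libraries the level was 31893, 28471 and 26303, all below baseline. PE + THZ1 gave 57024, 57013 and 58627, within the range of the baseline libraries. THZ1 alone gave the highest values, 71973, 67361 and 71082, above every other library. The order was therefore THZ1 (70139 ± 2447, SD, n = 3), PE + THZ1 (57555 ± 929), baseline (55314 ± 5169) and PE (28889 ± 2818), where PE + THZ1 and baseline did not differ beyond their spread. Between its lowest and highest library *Myh6* spanned 2.74-fold, and *Myh7* spanned 3.33-fold.

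**Figure D1:**
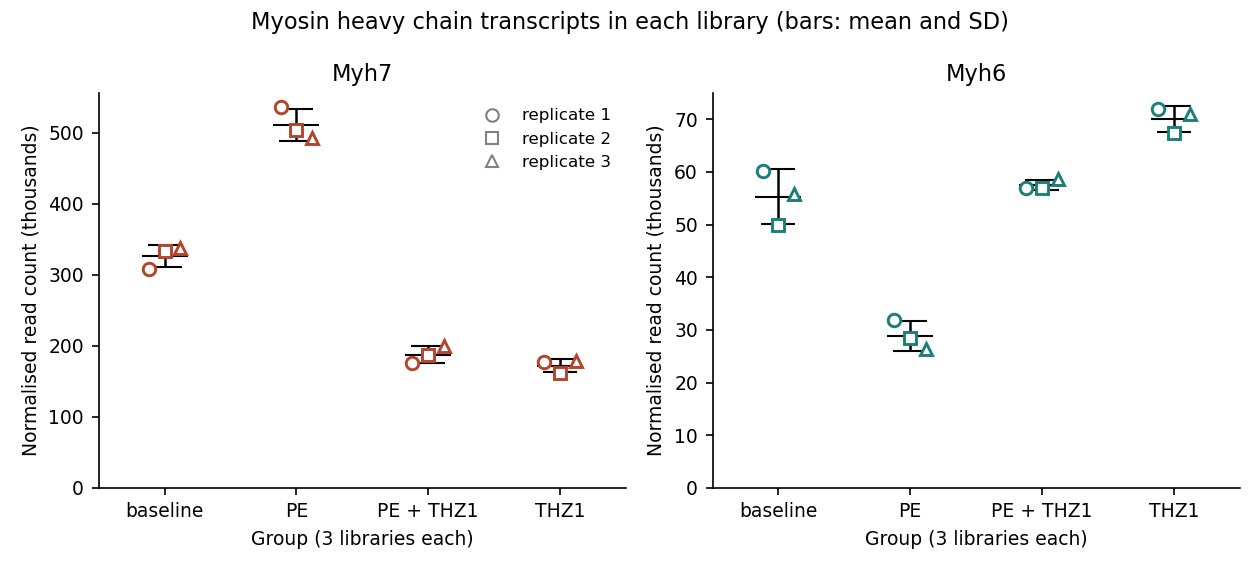
Normalised read counts (in units of 1000, axes from 0) of *Myh7* (left) and *Myh6* (right) in each of the 12 libraries by group. Open symbols are libraries, with shape giving the replicate number, and black bars are the mean and SD of 3. *Myh7* is highest with PE and lowest in both THZ1 groups, and *Myh6* is lowest with PE and highest with THZ1 alone.

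To ask how hypertrophic stimulation changed the myosin genes, PE was compared with baseline. *Myh7* rose 1.56-fold, a log2 change of 0.65 (standard error 0.07, 95% confidence interval 0.50 to 0.79, limma adjusted p = 4.1e-07). *Myh6* fell by 0.94 on the log2 scale (standard error 0.07, interval -1.08 to -0.79, limma adjusted p = 4.5e-09), which left 0.522 of its baseline level. The libraries of the groups did not overlap for either gene. Calls were common in this comparison, as 55.2% of the 14312 genes tested passed an adjusted p of 0.05 and 57% had groups that did not overlap. Of the 5677 tested genes with a mean normalised count of at least 1000, 4.99% rose as much as *Myh7* or more and 1.27% fell as much as *Myh6* or more. Among the 45 genes at least as abundant as *Myh6*, *Myh6* itself fell the most and *Myh7* ranked 9th by rise. At an adjusted p under 0.05, 18 of these 45 genes were higher and 14 lower. That split moved to 18 and 24 with equal library totals and to 10 and 26 with quantile normalisation. Without baseline replicate 2 the log2 changes were 0.66 for *Myh7* and -1.01 for *Myh6*.

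With THZ1 given before PE, both genes differed from PE in the direction opposite to the PE change. Relative to PE, *Myh7* fell by 1.45 on the log2 scale (standard error 0.07, interval -1.59 to -1.30, limma adjusted p = 7.1e-12), a level 2.72-fold lower. *Myh6* rose 2.00-fold (log2 change 1.00, standard error 0.07, interval 0.85 to 1.14, limma adjusted p = 9.4e-10). Again neither gene's libraries overlapped between the groups, against 69.2% of all genes tested without overlap and 61.7% called. A fall as large as that of *Myh7* was seen in 1.78% of the 5677 abundant genes and a rise as large as that of *Myh6* in 1.14%. Within the same 45 genes *Myh6* rose more than all others, and the fall of *Myh7* ranked 7th. At an adjusted p under 0.05, 11 of these 45 genes were higher and 28 lower. That split moved to 14 and 14 with equal library totals and to 28 and 10 with quantile normalisation. The difference between PE and PE + THZ1 was then set against the step from baseline to PE on the log2 scale. Its share of that step was 1.07 ± 0.0247 for *Myh6* (SD over the 3 PE + THZ1 libraries), a level near baseline. For *Myh7* the share was 2.24 ± 0.137, a level below baseline. Because THZ1 came before PE, the shares compare end levels and cannot show whether an established change was reversed. Both SDs treat the baseline and PE means as fixed and leave out their spread, so they understate the uncertainty of the shares. Without baseline replicate 2, an alternative chosen after seeing the data, these shares were 0.989 ± 0.0229 and 2.19 ± 0.133.

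**Figure D2:**
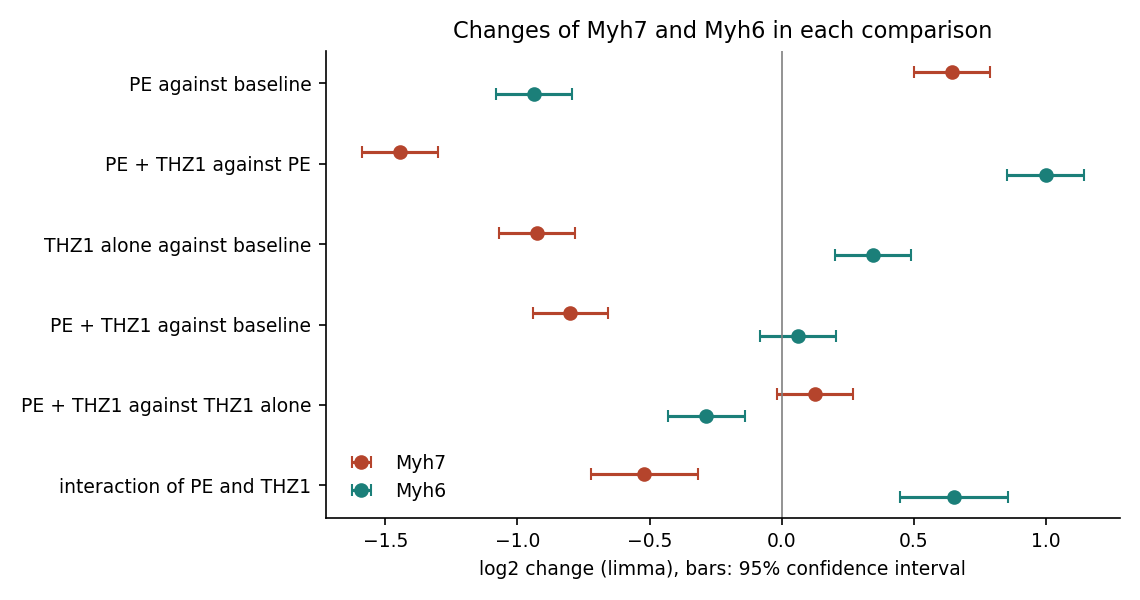
Log2 changes of *Myh7* and *Myh6* in the 5 comparisons between groups and their interaction. Points are limma estimates and bars are 95% confidence intervals. The 2 genes lie on opposite sides of 0 in the comparisons of PE with baseline, of PE + THZ1 with PE and of THZ1 alone with baseline.

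THZ1 changed both genes in unstimulated myocytes too. Against baseline, THZ1 alone lowered *Myh7* by 0.93 on the log2 scale to 0.527 of its level (log2 change -0.93, standard error 0.07, interval -1.07 to -0.78, limma adjusted p = 6.0e-09). *Myh6* rose 1.27-fold (log2 change 0.35, standard error 0.07, interval 0.20 to 0.49, limma adjusted p = 0.00042). Groups were separate for both genes, beside 55.1% of all genes, and 51.9% of all genes were called. Among the abundant genes, 2.43% fell as far as *Myh7*, and 9.35% rose as far as *Myh6*. Of the 45 most abundant genes, *Myh6* had the largest rise (2nd with quantile normalisation) and *Myh7* ranked 6th by fall. At an adjusted p under 0.05, 5 of these 45 genes were higher and 30 lower, a split that moved to 12 and 18 with equal library totals and to 12 and 15 with quantile normalisation. Without baseline replicate 2 the log2 changes were -0.91 and 0.27, both still past the threshold. The sizes here depended on the scaling of the libraries: quantile normalisation, which forces the same distribution on every library, gave -0.45 for *Myh7* and 0.66 for *Myh6*.

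The libraries with both agents were next set against baseline, which asks whether co-treated myocytes were at the unstimulated level. *Myh6* differed by a log2 change of 0.06 (standard error 0.07, interval -0.08 to 0.21, limma adjusted p = 0.47), and the groups overlapped. That interval leaves room for a level between 0.944 and 1.15 times baseline. The call depended on the scaling. With equal library totals *Myh6* was higher by 0.23 (limma adjusted p = 0.0044) and with quantile normalisation by 0.31 (limma adjusted p = 0.00027), while without baseline replicate 2 the estimate was -0.011 (limma adjusted p = 0.88). Equal totals moved the median of all genes in this comparison to 0.17, from near 0.00. *Myh7* was not at baseline but below it, by 0.80 on the log2 scale (standard error 0.07, interval -0.94 to -0.66, limma adjusted p = 3.7e-08). This was a level 1.74-fold lower with no overlap of libraries. Its change was -0.78 without baseline replicate 2 and -0.40 with quantile normalisation. In this comparison 54.1% of all genes were called and 56.8% had separate groups. Of the 45 most abundant genes, *Myh6* ranked 11th by rise and *Myh7* 6th by fall. Here 8 of the 45 were called higher and 27 lower, against 16 and 23 with equal library totals and 13 and 13 with quantile normalisation.

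PE still moved *Myh6* when THZ1 was present, but by less. From THZ1 alone to PE + THZ1, *Myh6* fell by 0.28 on the log2 scale (standard error 0.07, interval -0.43 to -0.14, limma adjusted p = 0.0054), and the groups were separate. This was the 2nd largest fall of the 45 most abundant genes. *Myh7* changed by 0.13 (standard error 0.07, interval -0.02 to 0.27, limma adjusted p = 0.20), with overlapping groups, so a rise of up to 0.27 on the log2 scale is within the interval. Fewer genes were called in this comparison, 24.3%, and 45.1% had separate groups. The difference between the PE effect with THZ1 and without it was tested as the interaction term. For *Myh6* it was 0.65 (standard error 0.10, interval 0.45 to 0.86, limma adjusted p = 7.8e-05), that is, a weaker fall with PE under THZ1. For *Myh7* it was -0.52 (standard error 0.10, interval -0.72 to -0.32, limma adjusted p = 0.00054), a weaker rise. An interaction was called for 32.2% of all genes. Without baseline replicate 2 the terms were 0.73 for *Myh6* and -0.54 for *Myh7*.

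**Figure D3:**
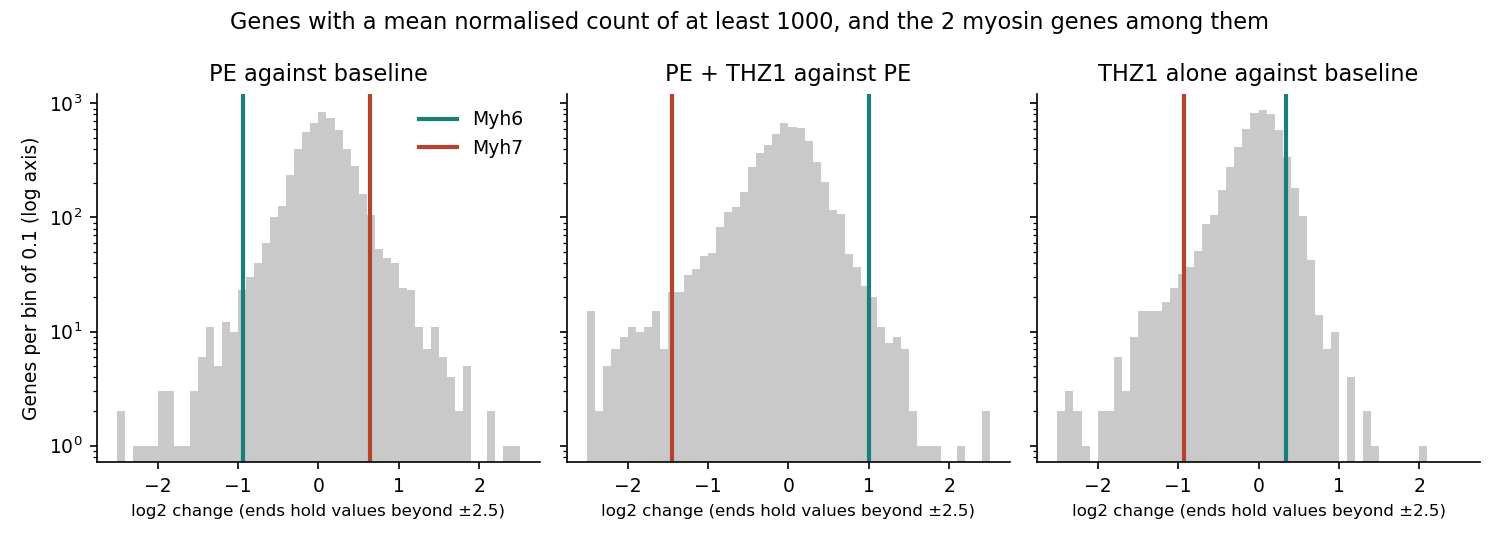
Histograms (log vertical axis, bins of 0.1) of the log2 changes of the 5677 tested genes with a mean normalised count of at least 1000 in 3 comparisons, with *Myh7* (red) and *Myh6* (green) marked by vertical lines. The myosin genes sit in opposite tails for PE against baseline and for PE + THZ1 against PE, and *Myh6* lies nearer the centre for THZ1 alone.

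The *Myh7* to *Myh6* ratio was taken within each library, so that it does not depend on how libraries were scaled to one another. It is a ratio of read counts, not divided by transcript length, so it is compared only between groups. At baseline the ratio was 5.13, 6.69 and 6.04, the highest in replicate 2. PE raised it to 16.8, 17.7 and 18.7. In PE + THZ1 libraries it was 3.09, 3.29 and 3.40, and with THZ1 alone 2.46, 2.39 and 2.51. No library of a group overlapped with any other group, and the order was PE, baseline, PE + THZ1 and THZ1. *Myh7* thus made up 94.7 ± 0.269% (SD, n = 3) of the reads on the pair with PE. The share was 85.5 ± 1.67% at baseline, 76.5 ± 0.866% under both agents and 71.0 ± 0.492% under the inhibitor alone. The 95% Wilson interval of this share was at most 0.38 percentage points wide in any library, which covers counting error only.

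On the log2 scale the ratio was higher by 1.58 (standard error 0.12) with PE than at baseline, a 3.00-fold difference. PE + THZ1 against PE gave a log2 difference of -2.44 (standard error 0.06), a ratio 5.44-fold lower. THZ1 alone against baseline gave -1.27 (standard error 0.11), 2.41-fold lower, and PE + THZ1 against baseline gave -0.86 (standard error 0.12), 1.82-fold lower. PE + THZ1 was above THZ1 alone by 0.41 (standard error 0.04), 1.33-fold. Each of these 5 comparisons gave p = 0.1 in a two-sided exact permutation test, also after Benjamini-Hochberg adjustment, which is the smallest p that 3 libraries against 3 allow, so none could pass 0.05. Where PE labels were permuted within the libraries without THZ1 and within those with it (400 arrangements), the mean difference of 1.00 gave an exact p = 0.005, and THZ1 labels permuted within PE strata gave -1.86 with an exact p = 0.005, in both cases the smallest possible. The PE effect on the log2 ratio with THZ1 minus that without it was -1.17 (standard error 0.13), a difference that was not tested. Leaving out baseline replicate 2 changed the PE difference from 1.58 to 1.67 and the THZ1 difference from -1.27 to -1.18. The same step moved PE + THZ1 against baseline from -0.86 to -0.77, and the difference between the PE effects from -1.17 to -1.26.

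**Figure D4:**
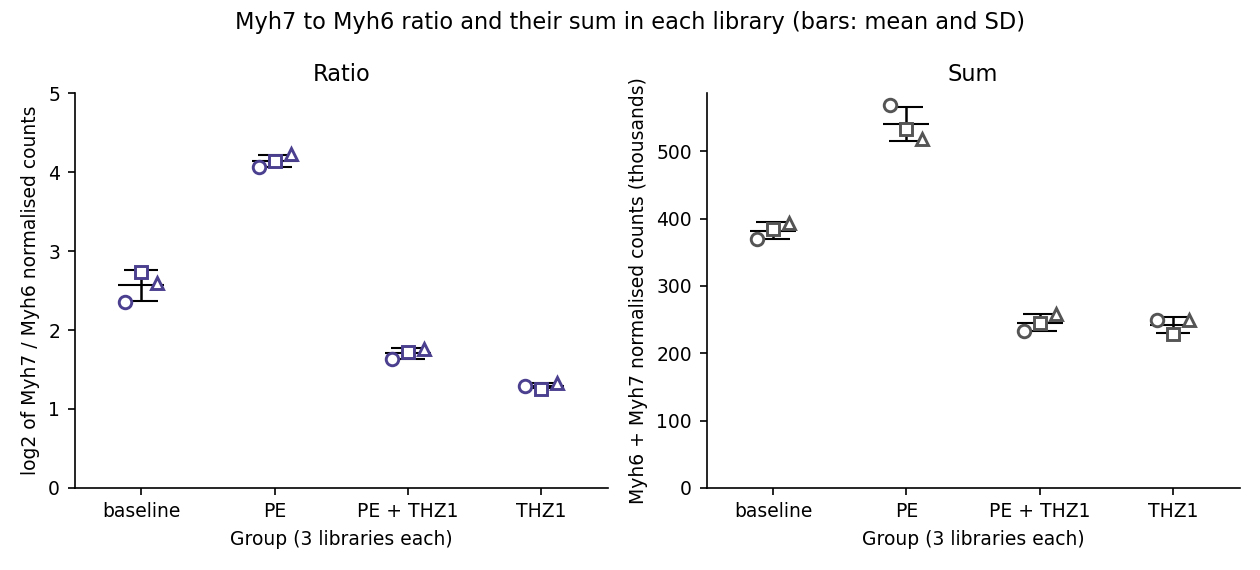
Left, log2 of the *Myh7* to *Myh6* ratio of normalised counts in each library, and right, the sum of both genes (normalised counts in units of 1000, axis from 0). Symbols are libraries and black bars the mean and SD of 3. The ratio separates all 4 groups, and the sum separates PE and baseline from the THZ1 groups, which overlap each other.

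Because *Myh7* was the larger of the 2 pools of reads, the sum of both followed it. Summed normalised counts were 382174 ± 12447 (SD, n = 3) at baseline, 540194 ± 25715 with PE, 245393 ± 12286 with PE + THZ1 and 242285 ± 11921 with THZ1 alone. The groups were separate in each comparison except PE + THZ1 against THZ1 alone, where the log2 sums differed by 0.02 (exact permutation test, two-sided, p = 0.7, against p = 0.1 for the other 4 comparisons). The log2 sum against baseline differed by 0.50 with PE, -0.66 with THZ1 alone and -0.64 with PE + THZ1, and each of these moved by less than 0.01 without baseline replicate 2. Unlike the ratio, the sum depends on how the libraries were scaled, and it was not computed under other scalings. With quantile normalisation the log2 change of *Myh7* against baseline was only -0.45 with THZ1 alone and -0.40 with PE + THZ1. The 2 genes are paralogues with coding stretches that closely resemble each other, and short single-end reads from such stretches may not be assignable to either. How many reads such stretches cost each gene was not tested. RefSeq (GRCr8) also lists 1 other gene entry, besides microRNAs, that overlaps *Myh6* and 2 that overlap *Myh7*. By the study's methods, however, reads were counted against an rn5 transcript reference. Whether that reference holds these entries was not checked.

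Other genes followed these patterns closely. By Pearson's r of log2(normalised count + 1) over the 12 libraries, which form 4 groups so that r mainly reflects group means, 796 of 5675 other genes with a mean of at least 1000 had an r over 0.9 with *Myh7*, and 450 had one with *Myh6*. Opposite patterns were also common, with an r under -0.9 for 456 of these genes with *Myh7* and 628 with *Myh6*. The most alike to *Myh7* were ENSRNOG00000048430 (r = 0.997) and ENSRNOG00000017253 (r = 0.996). ENSRNOG00000048430 had a mean of 7972 normalised counts at baseline, 11920 with PE, 4383 with PE + THZ1 and 4254 with THZ1. For *Myh6* they were ENSRNOG00000023433 (r = 0.993) and ENSRNOG00000005526 (r = 0.991). ENSRNOG00000023433 averaged 2904 at baseline, 1956 with PE, 3085 with PE + THZ1 and 3374 with THZ1. *Myh6* and *Myh7* had an r of -0.89 with each other.

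The directions of the PE changes and of the opposite differences between PE + THZ1 and PE held under other processing. Over 12 alternatives that kept all libraries, the log2 change with PE ranged from 0.56 to 0.67 for *Myh7* and from -1.07 to -0.94 for *Myh6*. That of PE + THZ1 against PE ranged from -1.45 to -1.07 for *Myh7* and from 1.00 to 1.38 for *Myh6*. Count models fitted to the recovered reads, by edgeR and DESeq2, were among these alternatives.

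**Figure D5:**
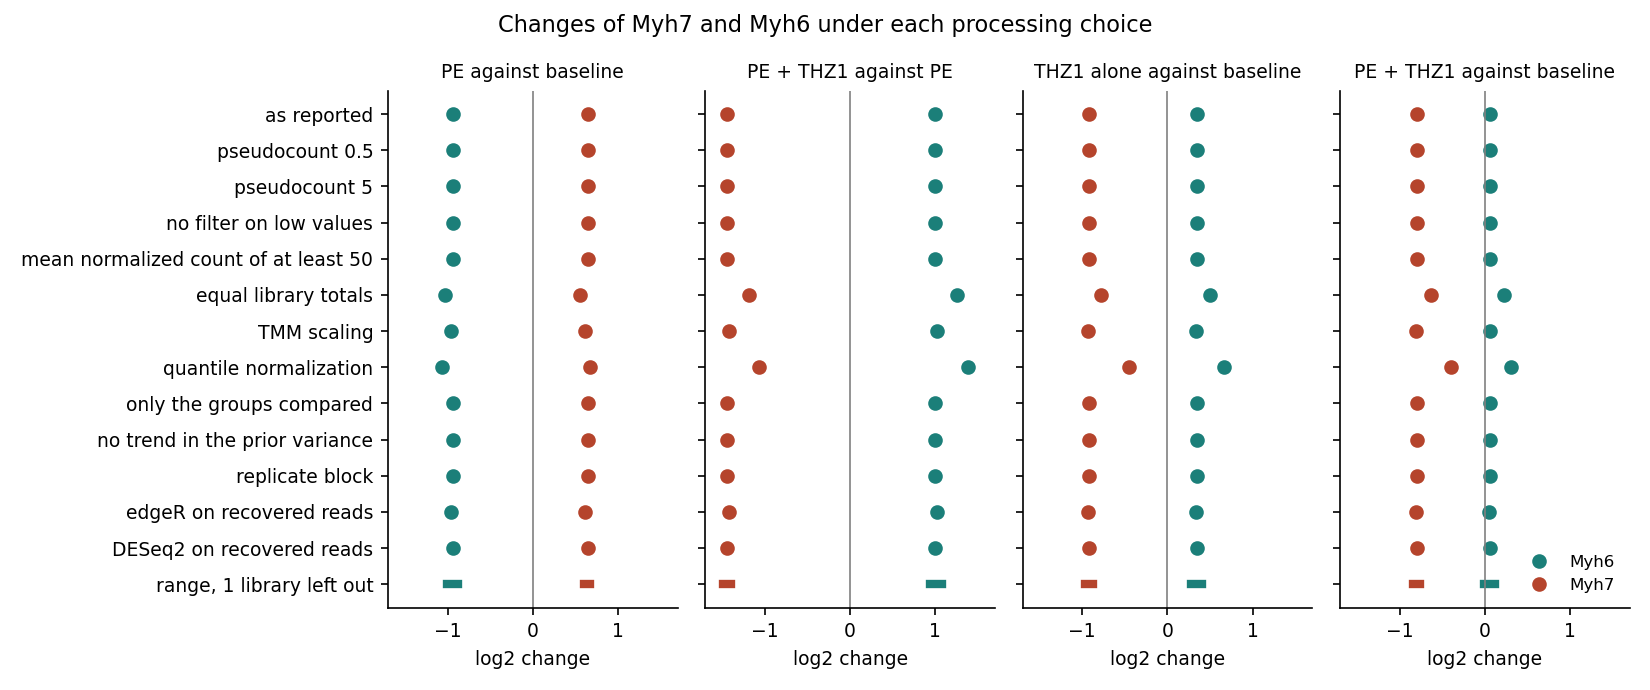
Log2 changes of *Myh7* (red) and *Myh6* (green) in 4 comparisons under each processing choice (points) and the range when each library was left out in turn (thick lines). Only equal totals and quantile normalisation move the points visibly, and only *Myh6* in PE + THZ1 against baseline sits near 0.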

How the data were processed

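By the study's methods, the authors aligned single-end reads to rn5 with TopHat 2.1.1, counted strand-specifically with HTSeq, and normalised all rat samples in 1 DESeq2 run. The deposited values are therefore a signal: each gene's reads, scaled by 1 DESeq2 size factor for its library, without correction for length. No listed gene is at 0 reads in any library. Libraries were mapped to groups by the sample titles. An unnamed column holding the authors' gene cluster was not used.

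Whole reads were recovered from the steps of each column (100% of values whole within 0.01 of a read). Genes with a mean normalised count of at least 10 were tested with limma 3.58.1 in R 4.3.3 on log2(normalised count + 1), a scale that understates changes of low genes. The prior variance followed expression, all 12 libraries were in 1 fit, tests were two-sided and p-values were Benjamini-Hochberg adjusted over all genes tested. edgeR 4.0.16 and DESeq2 1.42.0 were run on the recovered reads as alternatives, beside other pseudocounts, filters and scalings, a replicate block, and refits that omitted 1 library at a time. The fit and the exact tests (scipy 1.17.1) were checked on simulated data. The members and lists were chosen with earlier results of these data known. The 14 lists of sarcomere, regulator and marker genes (180 symbols) gave no result, because 0 of 15920 identifiers could be matched to a symbol. The genes to name were the members and those most alike or most opposite to each in pattern. Of these, the 2 most alike per member are printed, and the most opposite are not. Motifs were not searched, because the RefSeq promoter windows of *Myh6* and *Myh7* start 1966 and 1657 bases inside the annotated genes.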

Additional observations from a re-analysis of the deposited data

Results flagged for a closer look

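The effect of PE differed between myocytes without and with THZ1 for both genes, by the interaction term of the limma fit. For *Myh6* the difference was 0.65 on the log2 scale, from a fall by 0.94 without THZ1 to a fall by 0.28 with it. For *Myh7* the difference was -0.52, from a rise of 0.65 to 0.13, and the latter did not pass the threshold. Both interactions passed an adjusted p of 0.05 under all 11 alternatives that kept the libraries and with each library left out, with *Myh6* from 0.59 to 0.76 and *Myh7* from -0.62 to -0.41. Interactions were called for 32.2% of all genes. Levels of single genes were not screened for a far library, since the criterion used for that needs at least 4 libraries in a group.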

How the results depend on the processing

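Direction and side of the threshold held for 140 of 142 values of the 2 genes under alternatives that kept all libraries and for 143 of 144 with 1 library left out. The 3 exceptions concern *Myh6* in PE + THZ1 against baseline, which was 0.23 with equal library totals, 0.31 with quantile normalisation and -0.011 without baseline replicate 2 (range with each library left out, -0.011 to 0.12); the cause was not tested. A minimum absolute log2 change of 1 left 778 genes for PE against baseline, 1239 for PE + THZ1 against PE, 658 for THZ1 alone, 693 for PE + THZ1 against baseline, 160 for PE + THZ1 against THZ1 alone and 364 for the interaction, fewer by construction. In the fit as reported, only *Myh7* of the 2 myosin genes met this minimum, in PE + THZ1 against PE (-1.45). *Myh6* in that comparison fell just short (0.999), and neither gene met it elsewhere in that fit. For *Myh6* this depended on the processing. In PE + THZ1 against PE it was 1.26 with equal library totals, 1.38 with quantile normalisation and 1.02 with edgeR. In PE against baseline it was -1.03 with equal library totals and -1.07 with quantile normalisation. Equal totals moved the median log2 change of all genes from 0.00 to 0.15 for THZ1 alone and from 0.01 to 0.26 for PE + THZ1 against PE.

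Same-numbered libraries of different groups are not known to be paired: the correlation of their deviations from the group means was over 0.1 in 4 of 18 pairs. Among pairs with different numbers it was over 0.1 in 3 of 36. The mean correlation was 0.033 for same-numbered pairs and -0.017 for the others. The replicate block changed no call of either gene (*Myh7* in PE + THZ1 against THZ1 alone, adjusted p = 0.20 with the block) and gave 8071 genes for PE against baseline. All 114 alternative values of the ratio kept their direction. Their p-values say nothing of stability, because the comparisons between 2 groups could not pass the threshold in an exact test (p = 0.25 at the lowest with a replicate block) and the interaction had no test. Depth was not limiting for genes with this many reads.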
